A study of Rattus norvegicus with 5 samples.

Results

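Endothelial cells line the blood vessels of the inner retina. Here they were 779 of 32983 kept cell barcodes of 4 single-cell RNA libraries from rat retina, and they were selected on the measured levels of 6 genes, by a rule on transcripts counted as unique molecular identifiers (UMIs). A barcode was kept with at least 200 genes and at most 20% of its UMIs from mitochondrially encoded genes. It was endothelial with at least 5 UMIs in sum of Cldn5, Slco1a4, Ramp2 and Adgrf5, at least 1 of them from Cldn5, and 0 UMIs of Rlbp1, a gene of Müller glia, and of C1qa, a gene of microglia. The control library came from SD rat retina after citrate buffer, taken at 0 weeks. The other 3 came from SD rats made diabetic with streptozotocin (STZ, 45 mg/kg), a toxin of pancreatic beta cells, and taken after 2, 4 and 8 weeks. A blood glucose above 200 mg/dL defined diabetes, and these rats then ate food rich in fat and sugar, a diet that the labels do not give for the controls. Whole retinas were dissociated with trypsin, and no step that enriches vessel cells is named.

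Each group had 1 analysed library, and the other control library was not analysed here. No test between groups was possible, every interval below covers counting error only, and the weeks after STZ cannot be told apart from the diet, from the rats' age or from how each retina was prepared. The 3 comparisons also share the 1 control library. Values are given in the order control, 2, 4 and 8 weeks, and log2 ratios to control in the order 2, 4 and 8 weeks.

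Retinal endothelium forms the inner blood-retina barrier. Tight junctions seal the gaps between its cells, few vesicles cross them, and sugar, amino acids, hormones and iron enter the retina through carriers and receptors of the cell membrane. Norrin and Wnt ligands of the retina keep this program on through Fzd4 and its co-receptors, and pericytes wrap the capillaries. Leaking vessels, loss of pericytes and leukocytes that stick to the vessel wall are well-known features of diabetic retinopathy.

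The endothelial barcodes numbered 129, 549, 38 and 63. Their 4 rule genes gave 12889, 12189, 11603 and 12793 counts after scaling the summed UMIs of each library to the same total (CPM), a description of the rule and not a finding. The median barcode held 69, 52, 78.5 and 64 UMIs of the 4 genes, far from the threshold of 5, and 18 barcodes lay just inside at 5 or 6 UMIs. Just outside, 18 barcodes held 3 or 4 such UMIs. Another 35 had enough of them and were left out for UMIs of Rlbp1 (29) or C1qa (6). Cldn5, the claudin that seals the endothelial tight junction, stood at 8529, 8107, 7705 and 8693 CPM, and the rule took 92.4, 94.2, 99.6 and 94.2% of its UMIs among kept barcodes. Pairs of libraries shared 13 to 70 deposited barcode sequences, and no endothelial barcode was shared.

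The label was checked on genes that the rule did not use. Of 28 general endothelial genes listed, 26 were in the files and 25 had UMIs in each library, all but Robo4. Together these genes gave 9877, 9065, 9051 and 8924 CPM in the endothelial barcodes and between 366 and 563 CPM in the other kept barcodes. They included Cdh5, the endothelial cadherin, at 257, 237, 248 and 237 CPM and the VEGF receptor gene Flt1 at 1354, 1774, 1350.2 and 1397 CPM. Emcn, a sialomucin of the endothelial surface, was among the genes most enriched over the other barcodes of the same library, from 109 to 398 times by library. So was Rgcc, a regulator of the cell cycle, from 90.9 to 172 times. Microglia and macrophage genes summed to between 2.99 and 10.5 CPM, with 8, 7, 12 and 10 of 13 at 0, which the rule partly set, since it leaves out barcodes with C1qa. Genes of lymphatic endothelium summed to between 12.2 and 25.2 CPM. RNA of 3 other classes of cell was present in amounts that differed between libraries. Rod genes, 13 of 14 in the files, summed to 2130, 9588, 2243 and 3209 CPM. The 15 pericyte and smooth muscle genes summed to 2674, 1005, 1948 and 1250 CPM, with 13 to 15 of them detected, and 4 erythroid genes to 8490, 3854, 42.7 and 107 CPM. The 11 Müller glia genes summed to 8448, 7661, 8874 and 9409 CPM, with 4, 3, 6 and 5 of them at 0. In the other kept barcodes they gave 7086, 4138, 6220 and 4344 CPM. Kcnj10 and Rgr were at 0 in each library, as was Rlbp1 by the rule. Apoe, on the same list, stood at 5949, 5072, 5722 and 6486 CPM, above the 1705 to 3294 CPM of the other barcodes. Vim, also on it, stood at 2083, 2059, 2487 and 2386 CPM.

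Endothelial barcodes made up 1.74% of kept barcodes in control, with an exact (Clopper-Pearson) binomial 95% interval of 1.46 to 2.07%. The share was 4.35% (4.00 to 4.72%) at 2 weeks, 0.452% (0.320 to 0.620%) at 4 weeks and 1.38% (1.06 to 1.76%) at 8 weeks. On the log2 scale these were 1.32, -1.95 and -0.34 against control, and the interval of the last (-0.79 to 0.11) included no difference. The share did not move in 1 direction with time. Barcodes taken by a pericyte rule, which used Pdgfrb and 5 other pericyte genes, followed the same order at 0.527, 2.20, 0.0476 and 0.219%, as the plot of shares shows, and their 2-week excess and 4-week deficit were wider (log2 2.06 and -3.47). With whole retinas dissociated, fewer cells of a type and fewer cells recovered cannot be told apart. With at most 10% mitochondrial UMIs in place of 20%, the 2-week log2 ratio was 2.12. Gene levels of pericyte-rule barcodes given below are pooled over the 4 libraries. Of the 331 pericyte-rule barcodes 278 were from the 2-week library, so those levels are mostly of that library.

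**Figure D1:**
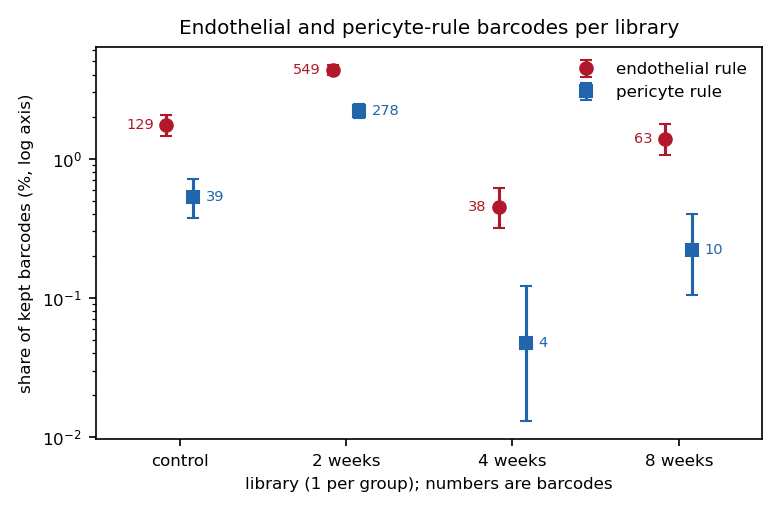
Share of kept barcodes (%, log axis) that met the endothelial rule (circles) and the pericyte rule (squares) in each of the 4 libraries, with exact 95% binomial intervals for counting error and the number of barcodes beside each point. Both shares were highest at 2 weeks and lowest at 4 weeks, where 38 endothelial and 4 pericyte barcodes were found.

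The gene comparisons rest on 1204669, 3341388, 491776 and 476118 UMIs summed over the endothelial barcodes. Median depth was 4770, 4083, 6282 and 4910 UMIs per barcode. At 4 weeks 1 barcode of 94275 UMIs held 19.2% of the sum, and for some genes a single barcode held much of the 4-week UMIs. A gene was used where its CPM averaged 20 or more and the pair compared held 30 or more of its UMIs, and it was called at 2-fold. At 2 weeks 158 of 5251 used genes were called higher (3.01%) and 134 lower (2.55%). At 4 weeks 165 of 5187 were higher (3.18%) and 126 lower (2.43%), and at 8 weeks 91 of 5159 were higher (1.76%) and 173 lower (3.35%). The median log2 ratio of all used genes was 0.03, 0.02 and -0.07, and 52.3, 52.3 and 43.6% of them lay above 0. Thinning to 1000 UMIs took barcodes of at least that depth and left out 6, 15, 0 and 6 endothelial barcodes. It gave 30 higher and 63 lower at 4 weeks and 18 and 50 at 8 weeks. The limit of 30 UMIs was applied again to the thinned sums, so fewer genes were used, and these counts are not comparable with those above. The sizes of the gene groups below are best read against these shares and medians.

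Of the junction genes of the barrier, none of the 9 used tight junction genes reached 2-fold at any time, and their medians were 0.10, 0.02 and -0.01. Over all used genes 3.01, 3.18 and 1.76% were 2-fold higher and 2.55, 2.43 and 3.35% lower, so none of 9 is near the general share. Ocln, which encodes occludin, stood at 147, 206, 175 and 153 CPM. Its 2-week log2 ratio was 0.48 (95% interval 0.25 to 0.73). Tjp1, the scaffold ZO-1, stood at 242, 321, 246 and 239 CPM and Jam2, a junctional adhesion molecule, at 333, 396, 283 and 368 CPM. Both were highest at 2 weeks, and the 2 later libraries lay within 0.23 of control on the log2 scale for either gene. Among 9 adherens junction genes, 1 was 2-fold higher at 2 weeks and 1 was 2-fold lower at 4 weeks. Cdh5 had log2 ratios of -0.12, -0.04 and -0.11, all with intervals that included 0. Jup, which encodes plakoglobin, was lower in each diabetic library at 69.7, 48.8, 36.6 and 42.0 CPM. Afdn, a linker of junctions to actin, was 2-fold higher at 2 weeks only, at 72.2, 150.2, 67.1 and 65.1 CPM. Ctnnb1, which encodes beta-catenin, was 2-fold lower at 4 weeks only, at 27.4, 23.6, 8.13 and 33.6 CPM, with 4 UMIs in that library. The plot of barrier genes sets these levels beside the carriers.

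**Figure D2:**
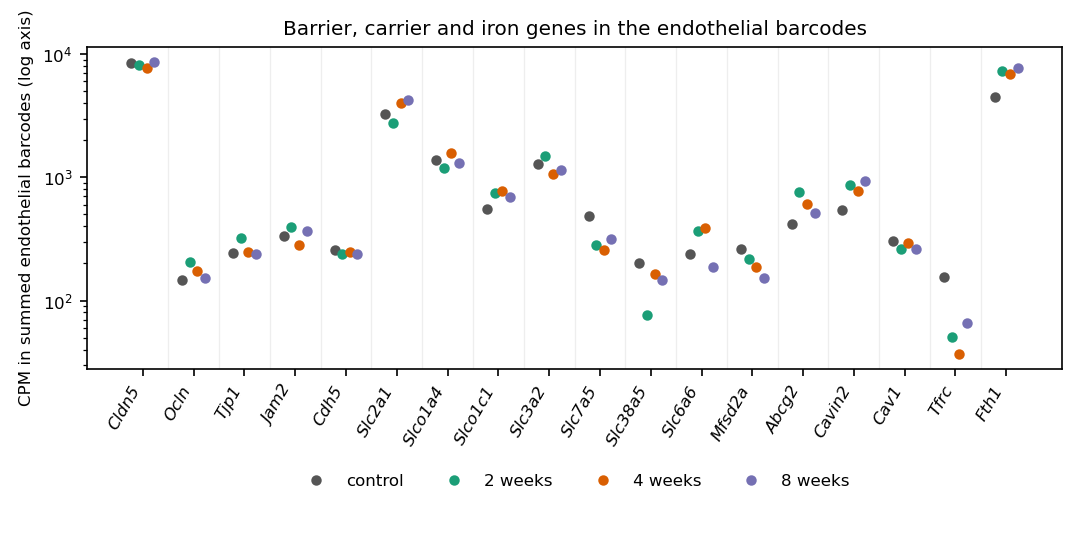
Level of 18 barrier, carrier and iron genes in the summed endothelial barcodes of each library (CPM, log axis), 1 point per library. The junction genes shown lay close together over the 4 libraries, Slc7a5 and Tfrc were highest in control, and Fth1 and Cavin2 were lowest in control.

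The carriers differed more than the tight junction genes, and in both directions. Slc2a1 encodes the glucose transporter GLUT1, the most abundant carrier here, and stood at 3288, 2782, 3999.8 and 4230.0 CPM. It was below control at 2 weeks and above it at 4 and 8 weeks (log2 -0.24, 0.28 and 0.36). Slc7a5 encodes LAT1, which brings large neutral amino acids into the retina. It stood at 486, 281, 256 and 313 CPM, with log2 ratios of -0.79, -0.92 and -0.63, so control was highest and no interval reached 0. Its partner chain Slc3a2 did not show this order, at 1294, 1480.2, 1059 and 1145 CPM. In the other kept barcodes Slc7a5 was also lower in each diabetic library, with ratios of -1.16, -0.84 and -0.50. Slc38a5, a carrier of glutamine and other small amino acids found in veins and capillaries, stood at 203, 76.6, 163 and 147 CPM, the only 1 of 17 used carriers past 2-fold at any time (-1.40 at 2 weeks).

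Slco1c1, the thyroid hormone carrier OATP1C1, stood at 551, 750.3, 775 and 687 CPM, higher in each diabetic library with log2 ratios of 0.44, 0.49 and 0.32. Abcg2 encodes the efflux pump BCRP and stood at 415, 756, 604 and 515 CPM (log2 0.86, 0.54 and 0.31). Mfsd2a carries lysolipids with docosahexaenoic acid and holds back vesicle traffic. It stood at 261, 219, 187 and 153 CPM, lower at each later time (log2 -0.26, -0.48 and -0.76). The taurine carrier Slc6a6 was above control at 2 and 4 weeks and below it at 8 weeks, at 239.9, 364, 388 and 187 CPM. Over the 17 used carriers the medians were 0.10, -0.21 and -0.10, against 0.03, 0.02 and -0.07 over all genes.

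Of the vesicle genes, Cavin2, which shapes caveolae, was higher in each diabetic library at 538, 861, 769 and 926 CPM, with log2 ratios of 0.68, 0.52 and 0.78. Cav1, the caveolar coat protein itself, was not, at 306, 259, 293 and 260.4 CPM. Fcgrt, the Fc receptor that carries antibodies back out of the barrier, stood at 437, 370.2, 279 and 357 CPM, lowest at 4 weeks.

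Tfrc stood lower and the ferritin gene Fth1 higher than control in each diabetic library. Tfrc encodes the transferrin receptor, through which iron crosses the barrier. It stood at 156, 50.3, 36.6 and 65.1 CPM, with log2 ratios of -1.63 (95% interval -1.94 to -1.33) at 2 weeks, -2.06 (95% interval -2.88 to -1.39) at 4 weeks and -1.24 (95% interval -1.86 to -0.71) at 8 weeks. Control lay more than 2-fold above every diabetic library. In the other kept barcodes the same gene was lower by less, with ratios of -0.64, -0.76 and -0.50. Fth1, the ferritin heavy chain that stores iron, went the opposite way at 4449, 7272, 6912 and 7683 CPM, while the light chain Ftl1 lay below control each time, at 1262, 836, 1228 and 1193 CPM. The 2 ferritin chains together gave 5710, 8107, 8140 and 8876 CPM, log2 0.51, 0.51 and 0.64. Outside the endothelium Fth1 was higher than control at 2 weeks only, with ratios of 0.36, -0.35 and -0.19.

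Endothelial genes also differ along the vessel from artery through capillary to vein, and single genes of these zones were compared within a library. Barcodes with at least 2 UMIs of Slc38a5 were set against those with none. In control the 18 with Slc38a5 held Gja4, an arterial connexin, at 4.43 CPM against 156 CPM in the 99 without, and Cxcl12, a chemokine of arterial endothelium, at 761 against 2188 CPM. Vwf, the von Willebrand factor made most strongly toward the vein, was the other way at 797 against 430 CPM. At 2 weeks, with 50 such barcodes against 457, Gja4 stood at 0 against 104 CPM, Cxcl12 at 350 against 2115 CPM and Vwf at 898 against 336 CPM. Not every zone gene followed this order. Sox17, from the arterial list, stood at 491 against 406 CPM in control and 584 against 575 CPM at 2 weeks. Lrg1, from the venous list, was lower in the barcodes with Slc38a5 in each library, at 57.5 against 93.2 CPM in control and 0 against 482 CPM at 8 weeks. Choosing barcodes for 2 UMIs also takes deeper ones, so these are descriptions. Mural UMIs are those of the genes of the pericyte rule. Without barcodes that held 3 or more of them, 6 of 109 control and 137 of 258 2-week Gja4 UMIs were left. Most control Gja4 UMIs were thus in barcodes with mural RNA.

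Of the 10 used arterial genes none reached 2-fold at 2 or 4 weeks, and their medians were 0.32, -0.17 and -0.31. At 2 weeks 8 of 10 lay above control. Sox17, a transcription factor of arterial fate, stood at 433, 577, 777 and 584 CPM, higher in each diabetic library with log2 ratios of 0.41, 0.84 and 0.43. Mgp, a matrix protein that binds bone morphogenetic proteins, stood at 2382, 1668, 1918 and 1882 CPM and Cxcl12 at 1637, 1717, 1112 and 1065 CPM. Of 2870, 5574, 943 and 896 Mgp UMIs, 621, 3632, 342 and 223 were left without barcodes that held 3 or more mural UMIs. Most control Mgp UMIs were thus in barcodes with mural RNA. The lowest Cxcl12 levels were those at 4 and 8 weeks. Alpl, alkaline phosphatase, was the member past 2-fold, at 127, 180.2, 108 and 52.5 CPM with -1.25 (95% interval -1.95 to -0.66) at 8 weeks. Without barcodes that held 3 or more mural UMIs this ratio was -0.60. Efnb2, Vegfc, Dll4, Unc5b, Tm4sf1 and Gja4, the remaining members, lay between -0.74 and 0.96 at all times.

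Capillary genes had medians of -0.26, -0.48 and -0.63 over 9 used genes, of which 6, 9 and 6 lay below control. Tfrc was the lowest of them at 2 and 4 weeks and Car4, carbonic anhydrase 4, at 8 weeks. Rgcc stood at 1383, 1155, 702 and 926 CPM, lowest at 4 weeks (log2 -0.26, -0.98 and -0.58). Itm2a, a membrane protein of brain and retinal capillaries, stood at 1854, 1079, 1449.8 and 1918 CPM, lower at 2 and 4 weeks only. Slc16a1, Slc22a8, Spock2, Mfsd2a and Slc7a5 lay between -0.92 and 0.44. Car4 stood at 30.7, 15.0, 26.4 and 10.5 CPM, levels near the limit for use, and a single barcode held 61.5% of its 4-week UMIs.

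Venous genes had medians of -0.53, 0.25 and -0.13 over 8 members. Lrg1, a secreted glycoprotein that acts on TGF-beta signalling in vessels, stood higher at each later time, at 82.2, 99.7, 203 and 368 CPM. Its log2 ratio was 0.27 (95% interval -0.05 to 0.62) at 2 weeks, 1.31 (95% interval 0.89 to 1.72) at 4 weeks and 2.16 (95% interval 1.80 to 2.53) at 8 weeks. The share of endothelial barcodes with an Lrg1 UMI was 30.2, 30.6, 42.1 and 54.0%, and after thinning to 1000 UMIs it was 7.32, 8.05, 13.2 and 29.8%. Rod barcodes, which should lack the gene, gave at most 0.0793%. Vwf was highest at 4 weeks at 583, 469.6, 992 and 731 CPM. Slc38a5 and Nr2f2, the venous transcription factor COUP-TFII at 47.3, 24.5, 54.9 and 39.9 CPM, were lowest at 2 weeks. Ephb4 and Emcn lay within 0.53 of control. Vcam1 and Icam1, the leukocyte adhesion molecules, are given with the inflammatory genes.

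The plot of zone genes also gives the shares of barcodes with a UMI. Alpl was found in 48.8, 48.6, 55.3 and 20.6% of endothelial barcodes, and in 18.5 to 23.3% of rod barcodes. Thinned, the endothelial shares were 12.2, 15.0, 18.4 and 5.26% and those of rods 13.8 to 17.4%. Tfrc was found in 46.5, 22.6, 26.3 and 27.0% of barcodes, with 3.61 to 7.24% in rods. Thinned, the Tfrc shares were 8.13, 6.55, 2.63 and 5.26%, and their intervals overlapped.

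**Figure D3:**
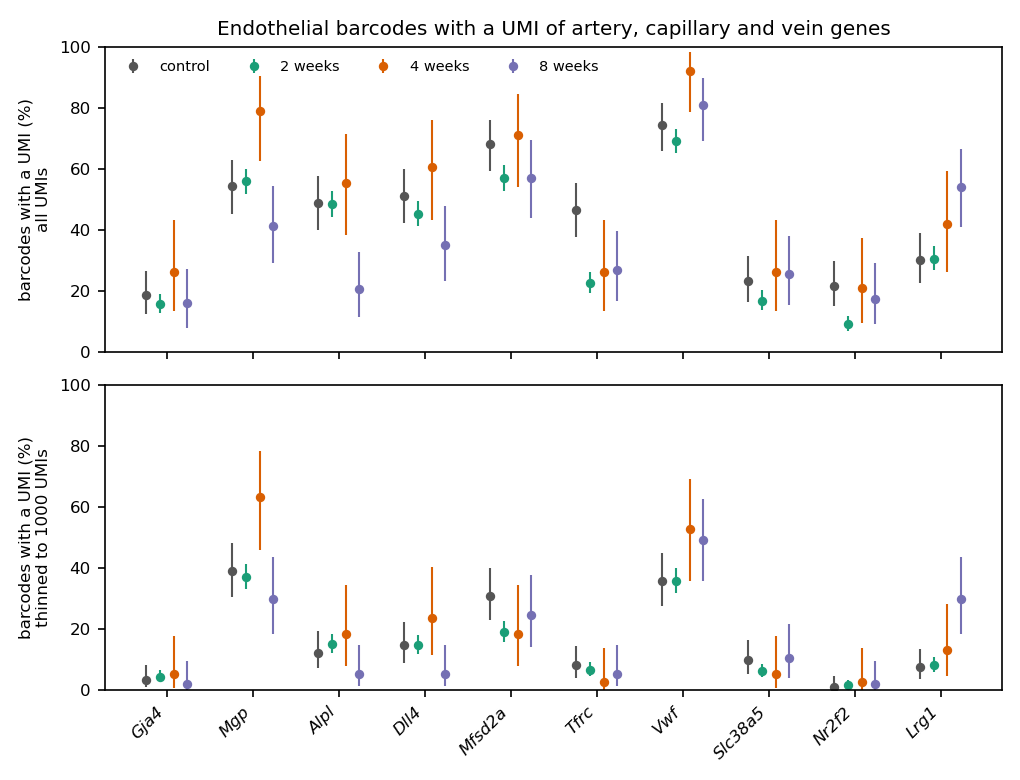
Share of endothelial barcodes (%) with at least 1 UMI of 10 artery, capillary and vein genes in each library, with exact 95% binomial intervals. The top panel uses all UMIs. The bottom panel follows thinning to 1000 UMIs, with barcodes below that depth left out. Lrg1 was highest at 8 weeks in both panels, and the intervals of most other genes overlapped after thinning.

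Signalling genes of vessel growth showed a few members outside 2-fold. Flt1 was highest at 2 weeks (0.39, 0.00 and 0.05). Kdr, the main signalling receptor for VEGF-A, stood at 125, 120.0, 95.6 and 60.9 CPM and was lowest at 8 weeks, at -1.01 (95% interval -1.66 to -0.45). Tek and Tie1, the angiopoietin receptors, stayed within 0.29 of control. Angpt2, the ligand that loosens vessels, was low at 24.1, 11.4, 46.8 and 21.0 CPM, and pericytes, which held 87.2 CPM, also make it. In the Notch pathway the ligand gene Jag1 was higher in each diabetic library at 83.8, 139, 153 and 126 CPM, while the target Nrarp stood at 386, 178, 319 and 116 CPM (log2 -1.12, -0.27 and -1.73). Nrarp was 2-fold lower at 2 and 8 weeks and nearer control at 4 weeks.

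Of the genes of Wnt and norrin signalling, Fzd4 itself stood at 76.4, 102, 97.6 and 84.0 CPM, within counting error of control at 4 and 8 weeks. Lef1, a transcription factor of the pathway, was highest at 4 weeks at 169, 223, 366 and 170.1 CPM (1.12). Apcdd1, a target and inhibitor of the pathway, was lower in each diabetic library at 207, 110.4, 144 and 77.7 CPM, with ratios of -0.91, -0.51 and -1.39. Over the 13 used members at 2 and 4 weeks and 12 at 8 weeks the medians were 0.11, 0.36 and 0.16. Eng, the TGF-beta co-receptor endoglin, was lower at each later time, at 401, 289.7, 228 and 208 CPM (log2 -0.47, -0.81 and -0.94). Smad1, which carries BMP signals to the nucleus, was higher in each diabetic library at 57.3, 108, 89.5 and 84.0 CPM. The BMP target Id1 was a little higher as well, at 2286, 3025, 2818 and 2487 CPM. The SOX factor gene Sox18 was 2-fold higher at 4 weeks and lower at 8 weeks, at 183, 291, 427 and 111 CPM.

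Genes of cholesterol synthesis stood lower in the diabetic libraries, with medians of -0.13, -0.68 and -0.68 over 13 used genes. Of these 10, 12 and 13 lay below control at 2, 4 and 8 weeks, where 47.7, 47.7 and 56.4% of all used genes did. Hmgcs1, which makes the precursor of mevalonate, stood at 113, 63.7, 59.0 and 37.8 CPM, with -1.54 (95% interval -2.38 to -0.86) at 8 weeks. Idi1, an isomerase later in the pathway, stood at 357, 225, 195 and 132 CPM and gave -0.67 (95% interval -0.84 to -0.49), -0.86 (95% interval -1.21 to -0.55) and -1.42 (95% interval -1.84 to -1.05). For both genes control was highest and 8 weeks lowest. Fdps, farnesyl diphosphate synthase, stood at 462, 422, 242 and 305 CPM. Cyp51, which demethylates lanosterol, stood at 75.5, 62.5, 32.5 and 37.8 CPM. 3 members were past 2-fold at 8 weeks, 2 at 4 weeks and none at 2 weeks. In the other kept barcodes Idi1 gave ratios of -0.31, -0.25 and -0.04 and Fdps of 0.08, 0.12 and 0.32. With at most 10% mitochondrial UMIs the 8-week ratio of Hmgcs1 was -0.76.

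Genes that respond to low oxygen lay above control more often than not, with medians of 0.22, 0.48 and 0.28 over 16 used genes and 13, 13 and 12 of them above 0. Most of this was small. Ndrg1, a hypoxia and stress response gene, was the exception at 319.6, 634, 809 and 1159 CPM. Its log2 ratio was 0.99 (95% interval 0.83 to 1.15) at 2 weeks, 1.34 (95% interval 1.13 to 1.55) at 4 weeks and 1.86 (95% interval 1.67 to 2.05) at 8 weeks, while the other kept barcodes gave -0.65, -0.02 and 0.07. P4ha2, a collagen prolyl hydroxylase, was higher in each diabetic library at 48.1, 74.5, 75.2 and 90.3 CPM. Ddit4, an inhibitor of mTOR signalling, stood at 511, 705, 761 and 601 CPM. Hk2, hexokinase 2, stood at 98.8, 192, 89.5 and 181 CPM, with ratios of 0.95, -0.13 and 0.87 that did not hold across settings. They were -1.30, 1.25 and 1.36 with free RNA subtracted, and thinned they were -0.37 at 2 weeks and -0.94 at 8 weeks. Rod RNA in the endothelial barcodes was also above control at 2 and 8 weeks. Epas1, which encodes the oxygen-regulated transcription factor HIF-2 alpha, was highest at 4 weeks, at 1046, 1103, 1464 and 1191 CPM. The 11 glycolysis genes had medians of 0.10, 0.11 and -0.01, and the 5 polyol, glycation and glucose sensing genes medians of 0.03, -0.07 and 0.00. With free RNA subtracted the 2-week glycolysis median was -0.60. The second list included Akr1b1, aldose reductase, at 54.0, 54.8, 61.0 and 69.3 CPM and Txnip, the glucose-induced thioredoxin inhibitor, at 395, 405, 319 and 326 CPM.

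The nuclear-encoded respiratory chain differed by small amounts. None of 31 used subunit genes reached 2-fold. Below control lay 12, 28 and 29 of them, with medians of 0.07, -0.27 and -0.16. Cox6a1, a cytochrome oxidase subunit, was the lowest at 4 weeks, at 719.7, 657, 405 and 702 CPM, log2 -0.83 (95% interval -1.06 to -0.61). Ndufa4, another, was highest at 2 weeks, at 716, 1263, 565 and 561 CPM. Transcripts of the mitochondrial genome itself took 8.81, 6.74, 8.52 and 11.1% of endothelial UMIs, a measure that the filter on barcodes cut at 20%. With Rlbp1 and C1qa barcodes kept, the 8-week median of the subunit genes was 0.04.

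Genes of insulin and FOXO signalling included 2 of the widest differences. Igfbp3, which binds insulin-like growth factors, stood at 72.2, 137, 860.1 and 319 CPM, with 0.92 (95% interval 0.59 to 1.27), 3.57 (95% interval 3.24 to 3.92) and 2.14 (95% interval 1.75 to 2.54). Each diabetic library lay above control, and at 4 weeks 40.9% of its UMIs were in 1 barcode. Pik3ip1, an inhibitor of PI3 kinase, stood at 33.2, 73.6, 97.6 and 94.5 CPM (log2 1.13, 1.55 and 1.51), and the other kept barcodes gave -0.39, -0.02 and -0.03. Foxo1, the transcription factor that insulin holds out of the nucleus, was lower in each diabetic library at 49.0, 31.1, 28.5 and 18.9 CPM. Thinned, its ratios were 1.04 at 4 weeks and -0.03 at 8 weeks, on 5 control UMIs. The insulin receptor gene Insr stood at 41.5, 29.6, 32.5 and 37.8 CPM, with each interval reaching 0. The medians over 9 used genes were -0.27, 0.44 and 0.23, and without barcodes that held 3 or more mural UMIs the 4-week and 8-week medians were -0.40 and -0.12.

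**Figure D4:**
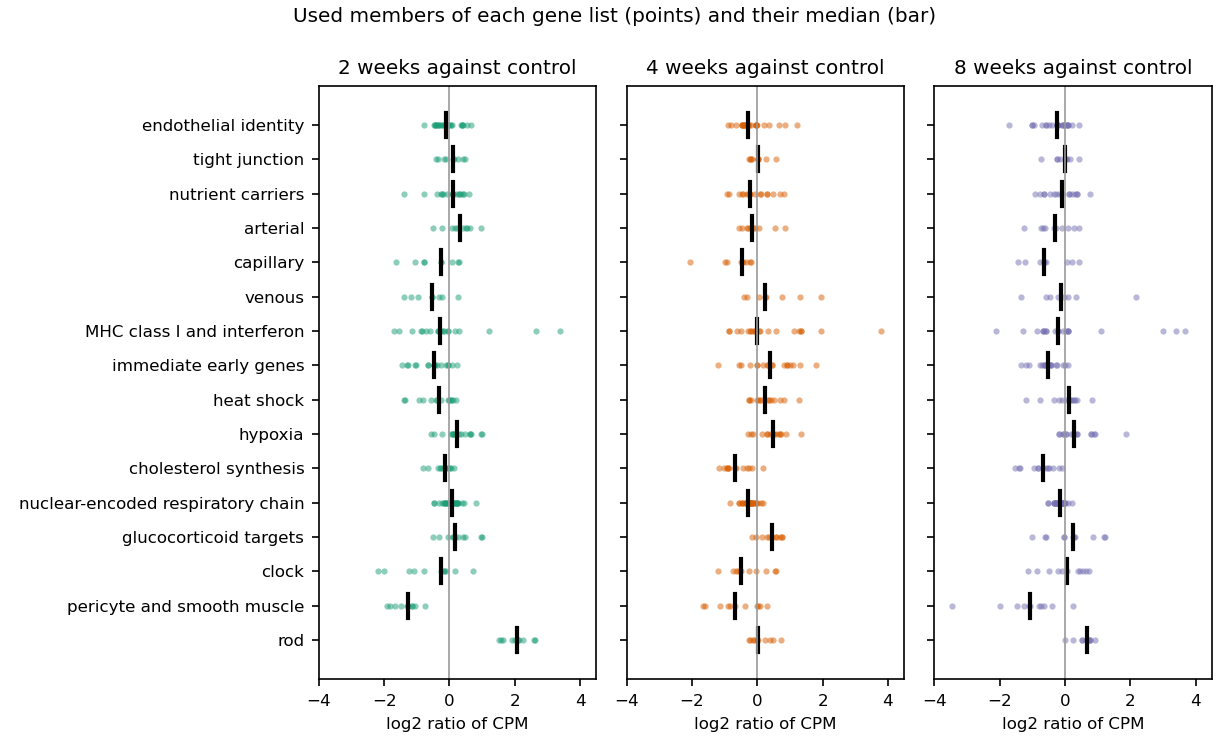
Log2 ratio to control of the used members (points) of 16 gene lists in the endothelial barcodes at 2, 4 and 8 weeks, with the median as a bar. Cholesterol synthesis lay to the left at 4 and 8 weeks, immediate early genes to the left at 2 and 8 weeks and to the right at 4 weeks, and rod genes to the right at 2 weeks.

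Several interferon-induced genes were highest in control, though the list of MHC class I and interferon genes as a whole was not on 1 side. Of its 20 used members 15, 10 and 12 lay below control, with medians of -0.29, -0.01 and -0.22. At 2-fold 3, 6 and 4 were higher and 3, 0 and 2 lower. Isg15, an ubiquitin-like protein made in response to interferon, stood at 266, 81.7, 173 and 60.9 CPM, with -1.70 (95% interval -1.94 to -1.46), -0.61 (95% interval -0.98 to -0.27) and -2.10 (95% interval -2.73 to -1.57). Usp18, which removes Isg15 from proteins, stood at 93.0, 22.7, 81.3 and 31.5 CPM and Irf7, the transcription factor that amplifies the response, at 72.2, 14.4, 28.5 and 27.3 CPM. Irf7 was more than 2-fold below control at each time (log2 -2.32, -1.30 and -1.36), and in the other kept barcodes its ratios were -2.85, -2.27 and -1.20 at no more than 2.72 CPM. Ifit3 stood at 183, 100.3, 99.6 and 122 CPM, Ifitm3, which blocks the entry of viruses, at 1174, 661, 836 and 729 CPM and Ifi27 at 2167, 1682, 1785 and 1180.4 CPM. These 3 were also highest in control. Bst2, which tethers viruses, was highest at 4 weeks, at 22.4, 27.5, 56.9 and 21.0 CPM. After thinning, the ratios of Irf7 were -1.49, -0.18 and 0.46, on 5, 8, 1 and 3 UMIs. With at most 10% mitochondrial UMIs the 8-week ratios of Isg15 and Usp18 were -1.18 and -0.35.

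Interferons act through ISGF3 and IRF factors, which bind an element of 2 GAAA blocks with any 2 bases between them. It was searched on both strands in the 250 bases before each gene's start, in RefSeq's rat build GRCr8. It occurred in 1140 of 33469 promoter windows (3.41%), and in 13 of the 22 genes of the MHC class I and interferon list that the table holds. Irf7, which is not on that list, also had it. The stretches below are shown because they carry the element in 5 of the genes just described, 5′ to 3′ on the strand of the gene. Capitals mark the GAAA letters of a match, or TTTC where the match is on the opposite strand.
Irf7, chr1:205800063-205800112, minus strand: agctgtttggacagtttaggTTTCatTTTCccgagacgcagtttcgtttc
Ifit3, chr1:241527262-241527311, plus strand: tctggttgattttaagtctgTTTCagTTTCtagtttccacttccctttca
Ifitm3, chr1:205541773-205541822, minus strand: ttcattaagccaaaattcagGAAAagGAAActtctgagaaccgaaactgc
Ifi27, chr6:128355123-128355257, plus strand: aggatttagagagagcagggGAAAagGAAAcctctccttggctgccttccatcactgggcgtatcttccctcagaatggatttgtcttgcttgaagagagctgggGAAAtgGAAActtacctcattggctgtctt
Bst2, chr16:18255063-18255118, minus strand: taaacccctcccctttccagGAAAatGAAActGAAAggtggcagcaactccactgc
The Ifi27 stretch holds 2 separate matches, and that of Bst2 holds 2 that overlap. Ifit3 and Ifitm3 each have 1 match 44 bases before the start, on opposite strands. A match describes the letters and does not show that a factor binds there, and Bst2, with 2 matches, did not follow the order of the other 4.

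MHC class I genes, which show peptides to T cells, did not stand on 1 side of control. The 31 genes of the rat MHC (RT1) in the files were taken by name and not by class. They gave 2930, 1954, 4075 and 2821 CPM in sum, log2 -0.58, 0.48 and -0.05. B2m, the shared light chain of class I, stood at 5596, 5005, 7026 and 5978 CPM. Single genes differed far more. RT1-T24-4 stood at 37.4, 398, 525 and 401 CPM and RT1-CE5 at 16.6, 39.2, 65.1 and 134 CPM, both higher in each diabetic library, while RT1-T24-3 stood at 867, 307, 356 and 292 CPM, lower in each. RT1-A1 stood at 20.8, 132, 50.8 and 271 CPM, above control at each time. The level of RT1-A2 was 433, 147, 946 and 269 CPM, above control at 4 weeks only. RT1 genes are near-identical copies that vary between animals, so reads can be split between them and these single-gene values are uncertain. The pair RT1-A1 and RT1-A2 together gave 454, 279, 996 and 540 CPM. Tap1, a part of the transporter that supplies peptides to class I, stood at 27.4, 31.1, 69.1 and 58.8 CPM. Its 4-week ratio of 1.33 was -1.11 after thinning, on 3 control and 0 4-week UMIs.

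Immediate early genes, which respond within minutes to injury and to dissociation, stood mostly lower at 2 and 8 weeks and higher at 4 weeks. Their medians were -0.46, 0.39 and -0.53 over 18 used genes, with 16, 6 and 17 below control. At 2-fold 5, 1 and 3 were lower and 0, 4 and 0 higher. Fos stood at 2907, 2226, 7152 and 2382 CPM, Jun at 4194, 2655, 7941 and 3102 CPM and Fosb at 607, 252, 2105 and 641 CPM. In each of these 3 AP-1 genes the 4-week library was highest. In the other kept barcodes Fos and Jun lay below control at every time, with ratios of -0.52, -0.75 and -0.49 for Fos and -1.54, -1.97 and -0.77 for Jun. Atf3, a stress transcription factor, stood at 1258, 599, 1716 and 491 CPM. Nr4a1, an orphan nuclear receptor, was lower in all 3 diabetic libraries at 739.6, 359.7, 319 and 319 CPM (log2 -1.04, -1.21 and -1.21). Klf4, which flow induces, was highest at 4 weeks at 1054, 985, 1875 and 704 CPM, and Klf2, its relative, was lower in each diabetic library at 54.8, 22.4, 36.6 and 31.5 CPM. After thinning, the 8-week median of the list was 0.01.

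Heat shock genes had medians of -0.32, 0.22 and 0.12 over 14 members. Hspa1b, the inducible HSP70, stood at 2699.5, 1040.0, 3864 and 3469.7 CPM and Hspb1, HSP27, at 2101, 1094, 2646 and 2123 CPM. Both were lowest at 2 weeks and near or above control at 4 and 8 weeks. The metallothioneins Mt1 and Mt2A, which bind zinc and copper, stood at 100.4, 172, 797 and 159.6 CPM and 13.3, 27.5, 179 and 27.3 CPM. At 4 weeks a single barcode held 60.5% of the Mt1 UMIs, and a single barcode 70.5% of those of Mt2A. The 14 genes of endoplasmic reticulum chaperones had medians of -0.03, -0.04 and -0.08 with none past 2-fold, and Hspa5, their main member, stood at 349, 337, 496 and 269 CPM.

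Glucocorticoid target genes had medians of 0.16, 0.46 and 0.23 over 11 members. Sult1a1, a sulfotransferase, was higher at each later time at 335, 445, 541 and 758 CPM, log2 1.18 (95% interval 0.97 to 1.39) at 8 weeks, and so was Fam107a at 236, 264, 323 and 422 CPM. Zbtb16, a strongly induced target, stood at 20.8, 41.6, 34.6 and 48.3 CPM. Tsc22d3, which encodes GILZ, stayed within 0.31 of control at 774, 839, 756 and 958 CPM. Clock genes differed between libraries, with medians of -0.26, -0.49 and 0.05 over 11 members, and the hour of collection is not given in the sources used here. Dbp, an output gene of the clock, stood at 193, 42.5, 83.4 and 265 CPM, lowest at 2 weeks (log2 -2.18, -1.19 and 0.46). Ciart, a repressor of the clock, stood at 34.9, 8.68, 22.4 and 29.4 CPM and Nr1d1, another, at 108, 50.9, 159 and 141 CPM. In the other kept barcodes Dbp gave ratios of -0.20, -0.54 and 0.09.

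Leukocyte adhesion and cytokine genes were scattered, with medians of -0.47, 0.30 and -0.58 over 12 members. Icam1 stood at 32.4, 14.4, 38.6 and 21.0 CPM and Vcam1 at 29.1, 20.4, 112 and 10.5 CPM, and at 4 weeks the richest barcode for each gene held 63.2% and 69.1% of its UMIs. The 4-week log2 ratio of Vcam1 was 1.94 with all UMIs, 2.86 without the deepest barcode of each library and -1.48 after thinning, on 4 control and 0 4-week UMIs. Icam2, a constitutive ligand for leukocytes, was lower in each diabetic library at 555, 419, 354 and 369.7 CPM (log2 -0.41, -0.65 and -0.58). Cxcl1, a chemokine for neutrophils, stood at 93.0, 35.6, 207 and 44.1 CPM, with 53.9% of the 4-week UMIs in 1 barcode. Without mural barcodes its ratios at 2 and 8 weeks were -2.94 and -4.39, the last on 1 UMI. Cx3cl1, fractalkine, was 2-fold higher at 2 weeks at 19.9, 47.6, 24.4 and 27.3 CPM. Nfkbia, the inhibitor of NF-kappa-B, stayed within 0.35 of control at 1742, 1603, 2216 and 1775 CPM.

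Of 15 genes of coagulation and vascular tone, 13, 7 and 13 lay below control, with medians of -0.31, 0.10 and -0.26. Plat, tissue plasminogen activator, was higher at 2 and 4 weeks at 1102, 1442, 1547 and 1069 CPM. Nos3, the endothelial nitric oxide synthase, stood at 217, 161, 161 and 187 CPM (log2 -0.43, -0.43 and -0.21), and Edn1, endothelin, at 56.4, 46.1, 36.6 and 39.9 CPM. Ptgs2, which encodes cyclooxygenase 2, was above control at 4 weeks and -2.05 (95% interval -3.50 to -1.03) at 8 weeks, at 64.7, 47.6, 144 and 14.7 CPM. Without mural barcodes its 4-week ratio was 0.56. Thbd, thrombomodulin, was highest at 4 weeks at 215, 194, 476 and 189 CPM, where 1 barcode held 55.1% of its UMIs. Of 19 basement membrane and matrix genes, Sparc was lower at each later time at 2994, 2089.8, 1716 and 1468 CPM (log2 -0.52, -0.80 and -1.03), and its relative Sparcl1 was not, at 543, 296, 964 and 886 CPM. Col4a1, the main collagen of the vessel's basement membrane, stood at 299, 319, 214 and 218 CPM. Fn1, fibronectin, which pericytes here lacked (0 CPM), stood at 428, 281, 405 and 470.5 CPM.

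A fixed rule named the widest differences, given here with what the genes do. It took genes with an interval that excluded 0, UMIs in at least 3 barcodes and no more than 50% of them in 1. At all 3 times 13 of 5131 used genes were at least 2-fold higher (0.253%) and 9 lower (0.175%). S100a6, a calcium-binding protein, stood at 126, 640.5, 466 and 422 CPM, with 2.34 (95% interval 2.11 to 2.59), 1.88 (95% interval 1.58 to 2.19) and 1.74 (95% interval 1.43 to 2.06). Without barcodes that held 3 or more mural UMIs its 4-week ratio was 0.89, and pericyte-rule barcodes held 434 CPM of it. Acer2, an alkaline ceramidase that makes sphingosine, stood at 218, 707, 1112 and 590.2 CPM (log2 1.69, 2.35 and 1.43). In every diabetic library it was at least 2.70 times control, and the other kept barcodes gave -0.16, 0.76 and 0.59. Resf1, which takes part in silencing retroelements, stood at 73.0, 178, 207 and 197 CPM, with 1.28 (95% interval 0.96 to 1.62) at 2 weeks and 1.43 (95% interval 1.00 to 1.87) at 8 weeks. The other barcodes gave -0.53, -0.37 and 0.01. RT1-T24-4, RT1-CE5 and Pik3ip1, given above, Proser1 at 11.6, 26.6, 32.5 and 37.8 CPM and the homeobox gene Msx1 at 28.2, 57.8, 61.0 and 56.7 CPM were the others named. Without the mural barcodes the 4-week ratio of Msx1 was -0.28, on 16 control and 6 4-week UMIs.

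Genes lower at all 3 times were led by F2rl1, which encodes the protease-activated receptor PAR2, at 50.6, 15.0, 18.3 and 12.6 CPM. Its log2 ratios were -1.76 (95% interval -2.33 to -1.20), -1.40 (95% interval -2.66 to -0.45) and -1.90 (95% interval -3.51 to -0.80), and the other barcodes held at most 0.225 CPM. It rests on few UMIs, 61, 50, 9 and 6, and too few were left after thinning to compare. Irf7, Tfrc, Nr4a1 and RT1-T24-3 are given above. The remaining pair, Rgs5 at 504, 159.5, 229.8 and 233 CPM and Cspg4 at 41.5, 17.1, 12.2 and 18.9 CPM, are pericyte genes, found at 2748 and 356 CPM in the pericyte-rule barcodes. Mural RNA in the endothelial barcodes was also highest in control. At 4 weeks a single barcode held 62.8% of the Rgs5 and 50.0% of the Cspg4 UMIs. Without the mural barcodes 2, 7, 1 and 1 UMIs of Rgs5 and no UMI of Cspg4 were left, too few to compare. The plot of single genes shows the intervals of 21 genes.

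**Figure D5:**
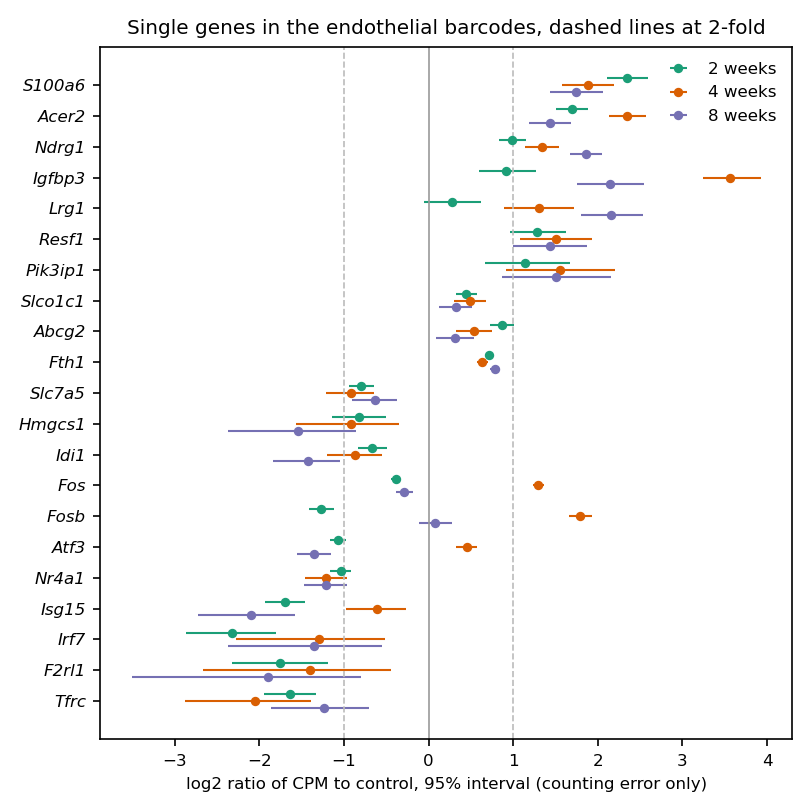
Log2 ratio of CPM to control at 2, 4 and 8 weeks for 21 genes in the endothelial barcodes, with 95% intervals for counting error and dashed lines at 2-fold. S100a6, Acer2, Resf1 and Pik3ip1 lay beyond 2-fold higher and Irf7, F2rl1, Nr4a1 and Tfrc beyond 2-fold lower at every time, and Fos and Fosb were past 2-fold higher at 4 weeks only.

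At 2 weeks the largest excess was that of Pi16, peptidase inhibitor 16, at 10.8, 232, 0 and 25.2 CPM, log2 4.37 (95% interval 3.65 to 5.34), with 0 UMIs at 4 weeks. Pi16 was found in 1, 32, 0 and 1 endothelial barcodes, so its control level came from a single barcode. Phlda3, a p53 target that restrains AKT, stood at 5.81, 45.8, 28.5 and 25.2 CPM, Chka, choline kinase alpha, at 9.13, 40.1, 36.6 and 37.8 CPM, Aif1l at 20.8, 88.0, 42.7 and 8.40 CPM and Avp, which encodes vasopressin, at 12.5, 45.5, 22.4 and 18.9 CPM. All 5 stood near or below the limit for use in control, and Aif1l at 8 weeks was below it again. Without mural barcodes 1 control and 135 2-week UMIs of Phlda3 were left, and the 4-week ratio of Aif1l was near 0, on 11 and 5 UMIs. RT1-T24-4, RT1-A1 and S100a6 completed the 8.

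The lowest at 2 weeks were mostly genes that mural cells hold. Serping1, the C1 inhibitor, stood at 25.7, 3.29, 46.8 and 10.5 CPM, Inmt, a methyltransferase, at 22.4, 3.29, 20.3 and 69.3 CPM, Bgn, biglycan, at 80.5, 14.4, 52.9 and 16.8 CPM, Serpine2, protease nexin 1, at 73.9, 14.4, 36.6 and 29.4 CPM and Aspnl1 at 66.4, 17.1, 40.7 and 23.1 CPM. Pericyte-rule barcodes held 205, 208, 303, 228 and 324 CPM of them. Without mural barcodes at most 8 UMIs of any of the 5 were left in a library, too few to compare. At 4 weeks a single barcode held 90.0% of the Inmt, 73.1% of the Bgn, 61.1% of the Serpine2 and 55.0% of the Aspnl1 UMIs. Irf7, Usp18 and Ciart, which pericyte-rule barcodes held at 0, 0 and 6.36 CPM, were the other 3.

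At 4 weeks the rule named Igfbp3, RT1-T24-4, RT1-CE5, Acer2, S100a6 and 3 further genes as highest. Ifi27l2b, an interferon-induced gene, was higher at 4 weeks only, at 19.9, 5.69, 118 and 6.30 CPM. Slc15a4, a lysosomal carrier of histidine and peptides, stood at 12.5, 10.2, 48.8 and 14.7 CPM. Lpl, lipoprotein lipase, was higher at 4 and 8 weeks, at 45.7, 30.8, 169 and 111 CPM. Of the lowest, Ptn, the growth factor pleiotrophin, had the firmest counts at 633, 1049, 175 and 512 CPM, log2 -1.85 (95% interval -2.19 to -1.53), and it was above control at 2 weeks. Ptprr, a tyrosine phosphatase that acts on MAP kinases, stood at 274, 340.0, 79.3 and 296 CPM, lower at 4 weeks only. Rasd1, a small GTPase that steroids induce, stood at 103, 50.9, 16.3 and 81.9 CPM, and without mural barcodes 7 control and 2 4-week UMIs of it were left. Lhpp, a phosphatase, at 46.5, 22.1, 8.13 and 39.9 CPM, Smdt1, a part of the mitochondrial calcium uniporter, at 24.1, 40.7, 4.07 and 27.3 CPM, Dpysl2 at 26.6, 20.1, 6.10 and 27.3 CPM and Stard8 at 40.7, 23.9, 10.2 and 33.6 CPM rest on 2 to 5 UMIs in the 4-week library. The 8th gene was Tfrc.

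At 8 weeks the highest were RT1-A1, RT1-T24-4, RT1-CE5, Lrg1, Igfbp3, Ndrg1, S100a6 and Proser1, all given above. Among the lowest, Tagln, a protein of contractile cells, stood at 356, 162, 433 and 31.5 CPM, Mylk, a kinase of smooth muscle myosin, at 25.7, 17.7, 40.7 and 2.10 CPM and Wnt5b at 33.2, 11.7, 54.9 and 2.10 CPM. Pericyte-rule barcodes held 7214, 302 and 276 CPM. The 5 contractile genes together gave 887, 362, 1007 and 214 CPM in the endothelial barcodes, which were lowest at 8 weeks as well, and without mural barcodes 1, 8, 0 and 0 UMIs of Tagln and no UMI of Wnt5b were left. At 4 weeks a single barcode held 51.9% of the Wnt5b UMIs. Bcl6b, a transcriptional repressor of endothelium that pericyte-rule barcodes lacked, stood at 62.3, 28.7, 42.7 and 12.6 CPM, log2 -2.20 (95% interval -3.80 to -1.12). Pip5k1b, a kinase that makes a membrane phosphoinositide, stood at 26.6, 41.0, 38.6 and 4.20 CPM. Bgn, Isg15 and Ptgs2 completed the 8.

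RNA of rods and of red blood cells in the endothelial barcodes differed in amount between libraries, and its part in the results was not tested beyond the subtraction named here. The 10 used rod genes had medians of 2.05, 0.01 and 0.67, with all 10 past 2-fold at 2 weeks. With all rod UMIs taken as free RNA, the estimate of free RNA was 7.13, 17.9, 4.59 and 8.41% of endothelial UMIs, highest at 2 weeks. Subtracting it changed the sign of 7 of the single-gene ratios and 6 of the list medians, those of Hk2 at 2 and 4 weeks and of glycolysis at 2 weeks among them. It moved the ratios of RT1-A1 to 4.81, 3.17 and 5.85 and that of Dbp at 2 weeks to -9.96. Counts that fell below 0 were set to 0, so a ratio as wide as that of Dbp does not measure a level. Hemoglobin genes summed to 8479, 3845, 42.7 and 107 CPM, and no comparison of them is drawn. Of the 27, 52, 8 and 7 endothelial barcodes with 3 or more mural UMIs, whether they were doublets of an endothelial cell and a pericyte was not tested.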

How the data were processed

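Whole rat retinas were measured by droplet single-cell RNA sequencing in 4 analysed libraries, and the second control library was not analysed here. The authors deposited UMI counts per gene and barcode, made with Cell Ranger 3.0.1 on Rnor_6.0 per the submitters' processing notes, for 25399 genes. Barcodes were selected by the rule above, and their counts were summed per library and scaled to CPM. Log2 ratios to control used 0.5 added to each count, also where a sum was 0, with exact conditional binomial 95% intervals for counting error. A bound from a floor of 3 counts was also computed for sums of 0, and no ratio printed here uses it. Members, gene lists and rules were chosen with earlier results of these data known. The naming rule took up to 8 genes in each direction per time, the widest ratios at 2-fold or more, and at all 3 times. They needed an interval that excluded 0, UMIs in at least 3 barcodes with at most 50% of them in 1, and a level no lower than that of all kept barcodes. Within lists, members were named for a high level, a wide ratio or their known role, the last after their values were seen.

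Doublets were kept in the main selection. Scrublet (in scanpy 1.11.5) called 3, 4, 0 and 1 barcodes at its own threshold, too few for a working caller, so an alternative left out those it scored highest, 16, 90, 0 and 8 of them endothelial. Others changed the filters, the scaling (edgeR 4.0.16 TMM), the depth per barcode (thinned to 1000 UMIs) and the fold, and left out mural barcodes. Median depth of endothelial barcodes lay between 4083 and 6282 UMIs. Promoters came from RefSeq's GRCr8 table. Scripts ran in Python 3.11.15 with numpy 2.4.6, scipy 1.17.1 and pandas 2.3.3, and the ratio and interval code was tested on simulated data.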

Additional observations from a re-analysis of the deposited data

Results flagged for a closer look

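These genes stood on opposite sides of control at 2 times, at 2-fold or more on each side. Each time is 1 library, so none of the differences was tested. Cxcl1 was 2.54 higher on the log2 scale at 4 than at 2 weeks and 2.21 higher than at 8 weeks. Fosb was 3.06 higher at 4 than at 2 weeks, Ifi27l2b 4.35 higher and RT1-A2 2.69 higher. Ptgs2 was 3.21 higher at 4 than at 8 weeks and Vcam1 3.29 higher. Inmt was 4.35 higher at 8 than at 2 weeks, on 33 and 11 UMIs in 3 barcodes each. Without mural barcodes 0 UMIs of Inmt were left at either time, and 1 UMI of Cxcl1 at 8 weeks. The 4-week Vcam1 UMIs came from 3 barcodes, and after thinning the 4-week ratio of Vcam1 to control was -1.48.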

How the results depend on the processing

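No paired analysis was possible because each group had 1 analysed library. Counting error is the only error measured, and the 38 barcodes at 4 weeks and 63 at 8 weeks limit low genes. Of 159 alternative values of the counts and shares 113 stayed within the range set for them and 46 moved. Only share ratios past 2-fold could be labelled reversed, and 0 were. Of 5733 alternative gene ratios 651 moved beyond the counting interval, and of 897 list medians 31 moved. Among gene ratios past 2-fold and list medians set apart from 0, 25 ratios and 5 medians reversed. Counting small values too, 273 ratios and 93 medians changed sign. Apart from the thresholds, where fewer or more genes pass by construction, the cause was not tested.

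With Rlbp1 and C1qa barcodes kept, 502 genes were higher at 8 weeks, against 91. With at most 10% mitochondrial UMIs the 2-week share ratio was 2.12, and 149 genes were higher and 342 lower at 8 weeks. The median endothelial barcode had 8.80, 6.64, 9.09 and 10.3% mitochondrial UMIs, so that limit left out most 8-week barcodes. As a mean over barcodes, 235 were lower at 2 weeks, 359 higher and 466 lower at 4 weeks, 269 and 548 at 8 weeks, and 25 and 28 at all 3 times. Thinned, these were 30 and 63 at 4 weeks, 18 and 50 at 8 weeks and 4 and 2 at all times, with fewer genes used. A mean of 5 CPM gave 387 and 268 at 2 weeks and 16 lower at all times. A mean of 100 CPM gave 34 and 34, 25 and 19, 19 and 35, and 5 and 4 at all times. At 1.5-fold they were 509 and 392, 664 and 494, and 413 and 623, and at 3-fold 42 and 36, 27 and 34, and 16 and 37. Leaving out 1 diabetic library gave 27 to 35 higher and 23 to 45 lower at all remaining times: 31 and 23 without 2 weeks, 35 and 45 without 4 weeks, 27 and 23 without 8 weeks.

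These log2 ratios and medians reversed, many on too few UMIs to show a level. Without mural barcodes they were 2.60 for Aspnl1, 1.01 for Cspg4, -1.31 for Inmt, 0.28 for Rgs5 and 1.01 for Wnt5b at 8 weeks. At 4 weeks they were 1.06 for Cspg4, -0.28 for Msx1 and 0.33 for Rgs5, and at 2 weeks 1.20 for Rasd1 and 0.57 for Tagln. Apart from Msx1 and Rasd1, these rest on 0 to 2 control UMIs, and Cspg4 and Wnt5b had 0 in every library, so their values only reflect library size. As a mean over barcodes Car4 was 1.79 at 8 weeks. Thinned, the 2-week ratios were 0.82 for Car4 and -0.0027 for Mt2A. The thinned 4-week ratios were 0.47 for Cspg4, 0.11 for Ctnnb1 and for F2rl1, 1.69 for Smdt1, 0.47 for Stard8, -1.11 for Tap1 and -1.48 for Vcam1. The thinned 8-week ratios were 0.62 for Cspg4, 0.46 for Irf7, 1.11 for Mylk, 0.37 for Serpine2 and 1.11 for Serping1. All these thinned gene ratios rest on 0 to 5 control UMIs. The 8-week medians were 0.037 for the respiratory chain with Rlbp1 and C1qa barcodes kept, 0.10 for coagulation and vascular tone at 10% mitochondrial UMIs, 0.013 for immediate early genes when thinned, and -0.077 and -0.55 for rod genes with doublets removed and when thinned.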
